A study of Mus musculus with 15 samples.

Results

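A set of 10 genes of germ cells and of pluripotency was followed through the aorta-gonad-mesonephros (AGM) region of the mouse embryo, in 15 RNA sequencing libraries. The 10 genes are Pou5f1, Nanog, Prdm1, Prdm14, Dppa3, Dppa5a, Dnd1, Nanos3, Dazl and Gdf3, and they were taken by name, 1 row each, from a table of 28876 genes. They were named without use of their values in any rule, but with earlier results of these data known. Libraries came from C57BL/6 embryos in 5 groups of 3, with no mutation or treatment named for any of them. At E9.5 the AGM region was divided into a dorsal part (E9 AoD) and a ventral part (E9 AoV). At E10.5 it was divided into a dorsal part (E10 AoD), a ventral part (E10 AoV) and the paired urogenital ridges beside the aorta (E10 UGR). Each library was made from tissue pooled over 15 to 34 embryos, in 3 separate experiments, so that differences between single embryos are not seen.

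Primordial germ cells are the founders of sperm and eggs. In the mouse they are set aside near the base of the allantois, travel in the hindgut wall, leave it through the dorsal mesentery and enter the genital ridges, which form on the coelomic face of the urogenital ridges. On this route they keep many genes of the pluripotent epiblast switched on, among them Pou5f1 and Nanog, while genes such as Dazl come up as the cells settle in the gonad. The AGM region lies across their path, so that a dissected part may or may not hold them. Among genes that peak in E10 AoV, the paper found stem cell and gonad terms enriched. It related these to germ cells passing through the ventral mesenchyme at E10.5. Its stained sections of the region also showed primordial germ cells. Their share in these libraries was not tested.

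Levels are given as RPM, the reads of a gene among 1000000 reads assigned to genes. Libraries held between 33700000 and 48600000 such reads, as worked out from the size of the smallest steps in each column, and 3 reads correspond to between 0.0617 and 0.0890 RPM. These values are ranges over the 15 libraries and not error limits. A gene was tested where at least 1 library reached 0.5 RPM, which held for 18553 genes and for 9 of the 10. Dazl, with a highest value of 0.307 RPM, was not tested. The test was limma's moderated test on log2(RPM + 0.1), and a gene was called where its Benjamini-Hochberg adjusted p was under 0.05 over all genes tested and its change was at least 2-fold. Fold changes on this scale understate the change of low genes. In pieces of tissue, fewer cells of a type and less RNA per cell cannot be told apart.

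In brief, 6 of the genes (Pou5f1, Nanog, Dppa3, Dppa5a, Prdm14 and Gdf3) were low in both dorsal groups, and were highest in E10 AoV in all 3 libraries. Their means in E10 UGR lay between those of E10 AoV and of the dorsal groups. Prdm1 was highest in E9 AoV instead. Dnd1 was present in every library and was moderately higher in E10 AoV, whereas Nanos3 and Dazl stayed low throughout. The paper had already placed Pou5f1, Nanog, Prdm14 and Gdf3 in a gene cluster of E10 AoV, drawn from these libraries. The direction of these genes here is therefore not independent evidence.

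Pou5f1 encodes OCT4, the POU-domain transcription factor that keeps epiblast cells pluripotent and germ cells alive. Its gene (ENSMUSG00000024406) is on chromosome 17, plus strand, bases 35642982 to 35647721 of NCBIM37. It was at 13.8, 14.8 and 15.6 RPM in the 3 E10 AoV libraries. E10 UGR had 2.52, 2.86 and 2.51 RPM, and E9 AoV 1.82, 2.25 and 1.95 RPM. Values in E9 AoD were 0.787, 0.833 and 0.235 RPM, and those in E10 AoD 0.0769, 0.326 and 0.45 RPM. The 3 groups at the top of this order did not overlap each other, whereas the ranges of the dorsal groups did. The lowest E10 AoV library exceeded every other library. In the fit Pou5f1 was higher in E10 AoV than in E10 AoD by 5.42 on the log2 scale (SE 0.38, limma adjusted p = 3.73e-08). The difference was 2.82 against E9 AoV (SE 0.38, limma adjusted p = 2.65e-05) and 2.44 against E10 UGR (SE 0.38, limma adjusted p = 0.000173).

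Nanog encodes a homeodomain factor that works beside OCT4. Its place is chromosome 6, plus strand, bases 122657507 to 122664651. It was at 3.61, 3.84 and 3.91 RPM in E10 AoV, at 1.72, 1.32 and 1.04 RPM in E10 UGR and at 0.342, 0.557 and 0.666 RPM in E9 AoV. In E9 AoD it was at 0.27, 0.188 and 0.15 RPM, and in E10 AoD at 0.0769, 0.176 and 0.189 RPM. The order of the groups was that of Pou5f1, again with the dorsal groups overlapping each other alone. Nanog was higher in E10 AoV than in E10 AoD by 4.01 (SE 0.25, limma adjusted p = 1.05e-08), than in E9 AoV by 2.68 (SE 0.25, limma adjusted p = 6.11e-07) and than in E10 UGR by 1.44 (SE 0.25, limma adjusted p = 0.000422), all on the log2 scale.

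Pou5f1 and Nanog changed together, Prdm1 and Nanos3 ran differently, and Dazl was low throughout. The 250 bases before the start of transcription are shown for these 5 genes. They are RefSeq sequences of GRCm38.p6, a later build than that of the RNA data, and read 5′ to 3′ on the gene's strand. Entries were found for these 5 of the 10 genes, and where a gene had several starts the first is shown. Capitals mark matches on either strand to the octamer core TTTGCAT, the SOX motif ACAATG, the GC box GGGCGG and the nuclear receptor half-site AGGTCA, none of which overlap in these windows. The windows are chr17:35505782-35506031 (plus strand) for Pou5f1, chr6:122707239-122707488 (plus strand) for Nanog, chr10:44458749-44458998 (minus strand) for Prdm1, chr8:84176553-84176802 (minus strand) for Nanos3 and chr17:50293621-50293870 (minus strand) for Dazl.
Pou5f1: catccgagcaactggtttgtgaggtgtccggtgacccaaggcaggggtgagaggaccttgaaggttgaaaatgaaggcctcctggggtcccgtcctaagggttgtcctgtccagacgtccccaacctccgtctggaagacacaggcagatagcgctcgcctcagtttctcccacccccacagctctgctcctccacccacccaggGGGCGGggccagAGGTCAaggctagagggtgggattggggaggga
Nanog: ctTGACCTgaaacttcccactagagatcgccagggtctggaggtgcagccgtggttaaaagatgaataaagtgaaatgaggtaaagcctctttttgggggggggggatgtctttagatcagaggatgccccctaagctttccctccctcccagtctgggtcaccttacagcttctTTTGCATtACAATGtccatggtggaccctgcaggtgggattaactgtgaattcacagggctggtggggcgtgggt
Prdm1: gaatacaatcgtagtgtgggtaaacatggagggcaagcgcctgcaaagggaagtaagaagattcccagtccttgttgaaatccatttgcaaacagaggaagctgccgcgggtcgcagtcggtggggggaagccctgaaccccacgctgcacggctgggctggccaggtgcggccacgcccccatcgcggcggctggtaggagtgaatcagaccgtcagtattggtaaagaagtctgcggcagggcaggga
Nanos3: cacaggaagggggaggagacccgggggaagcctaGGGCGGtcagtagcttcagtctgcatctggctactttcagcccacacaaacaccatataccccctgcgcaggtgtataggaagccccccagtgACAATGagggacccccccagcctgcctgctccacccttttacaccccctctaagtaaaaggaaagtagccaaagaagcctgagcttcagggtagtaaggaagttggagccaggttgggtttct
Dazl: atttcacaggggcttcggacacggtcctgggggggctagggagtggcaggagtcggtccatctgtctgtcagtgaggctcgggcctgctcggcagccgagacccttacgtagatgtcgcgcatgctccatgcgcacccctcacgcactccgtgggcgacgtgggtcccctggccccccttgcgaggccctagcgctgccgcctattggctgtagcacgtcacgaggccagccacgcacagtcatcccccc
The Nanog window holds an octamer core at position -75 from the start and a SOX motif at position -67, with 1 base between them. Of all 32851 promoter windows of this length, 4.12% hold the octamer core and 10.7% the SOX motif. The Pou5f1 window holds a GC box (found in 32.7% of all windows) beside a nuclear receptor half-site (14.0%). The Nanos3 window holds a GC box at position -216 and a SOX motif at position -123. None of these letter strings occurs in the Prdm1 and Dazl windows, which says nothing about the factors. The Dazl window has 20 CG dinucleotides and the Prdm1 window 15, against 8 for Pou5f1, 3 each for Nanog and Nanos3 and a median of 6 over all windows.

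Prdm1 and Prdm14 encode PR-domain factors that direct the specification of primordial germ cells, and Prdm1, also known as BLIMP1, is used in many other embryonic tissues, the gut endoderm among them. With stage in the ventral tissue these genes went opposite ways. Prdm14 (minus strand of chromosome 1, bases 13103538 to 13117244) was at 1.22, 1.05 and 1.3 RPM in E10 AoV. Its values were 0.119, 0.329 and 0.113 RPM in E10 UGR, and 0.205, 0.209 and 0.166 RPM in E9 AoV. E9 AoD had 0.0492, 0.161 and 0.0214 RPM, and E10 AoD 0.0256, 0 and 0.0237 RPM. The E10 AoV libraries stood above all others, and E10 UGR overlapped both E9 AoV and E9 AoD. In reads, E10 AoV held 144 over its 3 libraries and E10 AoD held 2, a ratio of 72.3 at equal depth (95% counting interval 19.7 to 603). This interval covers counting error in the summed reads only, not the spread between libraries. Prdm14 reached 0.5 RPM in E10 AoV alone, so that it could be tested only because it was high there. The limma difference between these groups was 3.47 (SE 0.30, adjusted p = 2.98e-07), and its size depends on the constant added before the log.

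Prdm1 (minus strand of chromosome 10, bases 44156983 to 44248307) was at 19.4, 27.6 and 23.8 RPM in E9 AoV. It was at 8.48, 8.01 and 7.23 RPM in E9 AoD and at 8.72, 7.24 and 5.7 RPM in E10 AoV. Values were 2.69, 4.67 and 2.91 RPM in E10 AoD, and 3.35, 3.97 and 3.15 RPM in E10 UGR. E9 AoV stood above all other groups, E9 AoD and E10 AoV overlapped, and so did the pair at the bottom. From E9 AoV to E10 AoV Prdm1 fell by 1.70 on the log2 scale (SE 0.20, limma adjusted p = 5.22e-06), while it was higher in E10 AoV than in E10 AoD by 1.08 (SE 0.20, limma adjusted p = 0.000473). This last call was close to the 2-fold line and was lost without E10 AoD replicate 1 or 3 or E10 AoV replicate 1, where the difference was 0.93, 0.98 and 0.93. The summed level of 6 gut endoderm markers (Epcam, Cdh1, Cdx1, Cdx2, Foxa1 and Foxa2, all measured) was highest in E9 AoV, at 203 to 253 RPM, against 119 to 126 RPM in E10 UGR and 22.5 to 25.1 RPM in E10 AoV. Epcam, Cdh1, Cdx2 and Foxa1 had their highest mean in E9 AoV, while Cdx1 (2.13 against 6.21 RPM) and Foxa2 (10.8 against 11.1 RPM) did not, with E9 AoD above. The sum in E10 UGR came mostly from Epcam (53.8 RPM) and Cdh1 (66.9 RPM), whose ranges overlapped those of E9 AoV. Means of Cdx1, Cdx2, Foxa1 and Foxa2 in E10 UGR were 1.48, 0.0676, 0.247 and 0.0616 RPM. Whether these markers have a part in the Prdm1 values was not tested.

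Dppa3, also known as STELLA, encodes a maternal and germ cell protein that guards DNA methylation in the early embryo. Its start is at -81.1 kb from that of Nanog, on the same strand (chromosome 6, bases 122576428 to 122580290). Its values were 4.05, 4.76 and 5.15 RPM in E10 AoV, with 1.07, 0.732 and 0.627 RPM in E10 UGR, and 0.403, 1.11 and 0.654 RPM in E9 AoV. It was at 0.156, 0.273 and 0.0428 RPM in E9 AoD and at 0.082, 0.125 and 0.17 RPM in E10 AoD. E10 AoV stood clear of every other group, E10 UGR and E9 AoV overlapped, and so did the dorsal groups. Dppa3 was higher in E10 AoV than in E10 AoD by 4.41 (SE 0.34, limma adjusted p = 1.12e-07) and than in E10 UGR by 2.41 (SE 0.34, limma adjusted p = 7.70e-05), both on the log2 scale.

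Dppa5a encodes a small RNA-binding protein that is abundant in embryonic stem cells and germ cells (minus strand of chromosome 9, bases 78214859 to 78215984). It was at 7.1, 6.55 and 6.31 RPM in E10 AoV and at 1.16, 1.36 and 1.11 RPM in E10 UGR. In E9 AoV it was at 0.394, 0.654 and 0.506 RPM, in E10 AoD at 0.254, 0.0766 and 0.162 RPM and in E9 AoD at 0.197, 0.128 and 3.4e-05 RPM. E10 AoV, E10 UGR and E9 AoV were clear of each other and of the dorsal groups, which overlapped. The value of 3.4e-05 RPM, a small fraction of 1 read, can arise because reads that match several genes were divided among them. Of the 570 windows of 50 bases, the read length, in its transcript, 63.3% occur at other places in the genome. From E9 AoV to E10 AoV Dppa5a rose by 3.47 on the log2 scale (SE 0.33, limma adjusted p = 8.59e-07).

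The copies of Dppa3 and Dppa5a took reads too. A pseudogene on chromosome X listed as RP23-457N24.13 shares 18.2% of the Dppa3 windows. It was at 2.27, 2.18 and 2.47 RPM in E10 AoV but at 0.318, 0.269 and 0.217 RPM in E10 UGR and no higher than 0.0461 RPM in E10 AoD. The Dppa5a pseudogenes AC164700.1 on chromosome 5 and RP23-72P20.5 on chromosome X share 14.2% and 12.8% of its windows, and their mean levels in E10 AoV were 1.37 and 0.572 RPM. All 3 were called higher in E10 AoV against E10 AoD, by 4.23, 3.48 and 2.51 on the log2 scale (limma adjusted p at most 2.26e-07). The gene Pigp holds 21.9% of the Dppa5a windows and was at 14.2 to 23.2 RPM on average, with a difference of 0.47 between E10 AoV and E10 AoD (SE 0.06, limma adjusted p = 3.96e-05), under the 2-fold line. Dppa5b holds 45.3% of the Dppa5a windows, Rhox3g-ps holds 22.9% of those of Dppa3, and both were at 0.0214 RPM or less on average in every group. Reads of these copies and of the genes could not be told apart here. The Dppa3 and Dppa5a levels are therefore uncertain, more so than those of Prdm1, Prdm14, Nanos3 and Dazl, which share no such window. For Nanog 18.4% of the windows occur elsewhere, in 1204 other annotated genes or outside genes, so that its level is uncertain too. Part of Pou5f1 (14.5% of its windows) occurs in the gene Rfwd2, which was at 49.7 to 53.3 RPM on average in every group and was not called between any of them.

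Dnd1, Nanos3 and Dazl encode RNA-binding proteins of the germ line. Dnd1 and Nanos3 protect migrating germ cells from death, and Dazl is a translational regulator of gonadal germ cells. Dnd1 and Nanos3 departed from the pattern of Pou5f1. Dazl, at far lower levels, had means that fell from E10 AoV to E10 UGR to E9 AoV, with both dorsal groups below. Unlike those of Pou5f1, its E10 AoV and E10 UGR ranges overlapped. Dnd1 was at 4.46, 3.96 and 4.84 RPM in E10 AoV, above every other library. The E9 AoD libraries had 2.83, 2.79 and 2.78 RPM and the E9 AoV libraries 2.94, 2.25 and 2.85 RPM. Values were 2.34, 2.3 and 2.82 RPM in E10 UGR and 1.87, 2.41 and 1.99 RPM in E10 AoD. The ranges of E9 AoV, E9 AoD and E10 UGR overlapped one another, and E10 AoD overlapped E9 AoV and E10 UGR. Dnd1 was higher in E10 AoV than in E10 AoD by 1.05 (SE 0.13, limma adjusted p = 1.47e-05), a call that fell to 0.98 and under the 2-fold line without E10 AoD replicate 1 or E10 AoV replicate 3. Exons of Dnd1 and of Wdr55 on the other strand share 38 bases, 1.6% of the exon bases of Dnd1. Reads in them cannot be told apart unless strand was used, which is not stated. Wdr55 was not higher in E10 AoV, with 23.1 ± 1.65 RPM against 25.0 ± 2.06 RPM in E10 AoD (SD, n = 3 each).

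Nanos3 (minus strand of chromosome 8, bases 86697632 to 86700451) was at 0.934, 0.563 and 0.629 RPM in E10 AoV, at 0.622, 0.637 and 0.732 RPM in E10 UGR and 0.794, 0.452 and 0.379 RPM in E10 AoD. The 3 groups of E10.5 overlapped. At E9.5 it was at 0.342, 0.232 and 0.428 RPM in E9 AoV and at 0.393, 0.215 and 0.257 RPM in E9 AoD. No comparison called it at 2-fold, although E10 AoV against E9 AoV did without E9 AoV replicate 3 (1.05, limma adjusted p = 0.0107) or E10 AoV replicate 2 (1.03, limma adjusted p = 0.0137). From E9.5 to E10.5 it differed by 0.90 in AoV (SE 0.26, limma adjusted p = 0.0116) and by 0.70 in AoD (SE 0.26, limma adjusted p = 0.0334), both with the higher mean at E10.5. Dazl (minus strand of chromosome 17, bases 50418719 to 50432924) was at 0.285, 0.307 and 0.233 RPM in E10 AoV and at 0.178, 0.247 and 0.197 RPM in E10 UGR, and these ranges overlapped. It was at 0.137, 0.116 and 0.143 RPM in E9 AoV, at 0.123, 0 and 0.0428 RPM in E9 AoD and at 0.0256, 0.0753 and 0.189 RPM in E10 AoD. In reads, no library held more than 12 of Dazl.

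Gdf3 encodes a ligand of the TGF-β family that signals through NODAL receptors with a CRIPTO-type coreceptor and can block BMPs. The study picked it from these libraries as a secreted candidate, so its direction here is not independent evidence. In the paper's E9.5 cultures, added GDF3 protein did not significantly raise repopulation over control. The Gdf3 gene lies on the minus strand of chromosome 6 from base 122555421 to base 122560105, close to Dppa3 and Nanog. Its values were 0.597, 1.02 and 0.699 RPM in E10 AoV, with 0.296, 0.247 and 0.197 RPM in E10 UGR. The other groups were lower, with 0.0684, 0.116 and 0.119 RPM in E9 AoV, 0.0246, 0.134 and 0.0641 RPM in E9 AoD and 0.0512, 0.0753 and 0.071 RPM in E10 AoD, that is 2 to 3 reads in each E10 AoD library. E10 AoV and E10 UGR did not overlap each other or the remaining groups, while the remaining groups overlapped. Against E10 UGR, Gdf3 was higher in E10 AoV by 1.31 on the log2 scale (SE 0.25, limma adjusted p = 0.000952).

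**Figure D1:**
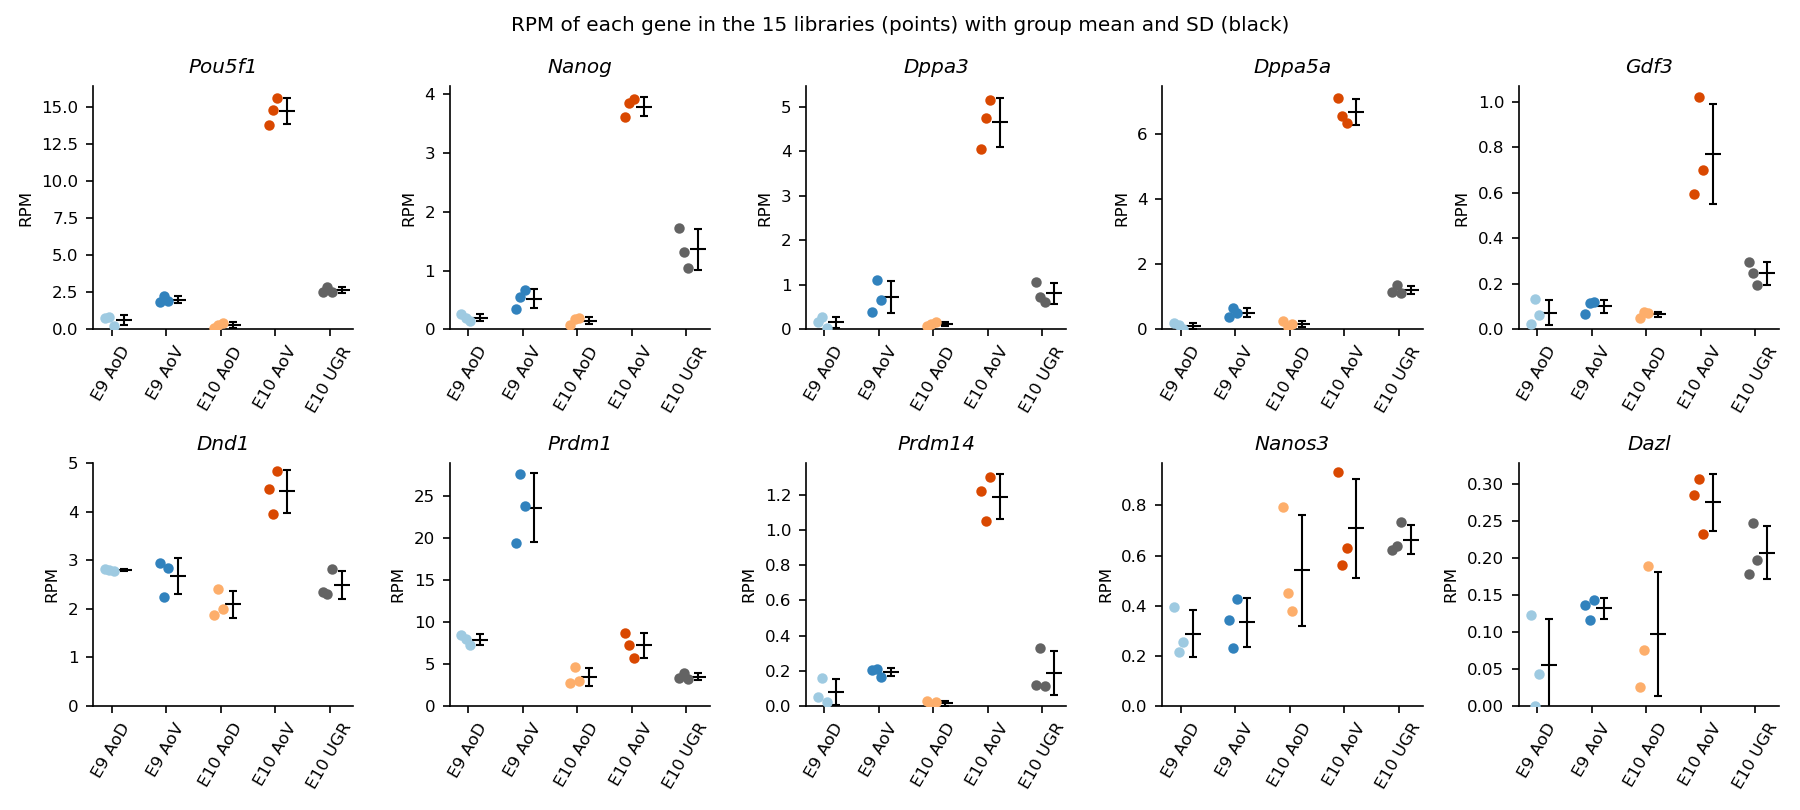
RPM (y axis, linear from 0, a scale of its own for each gene) of the 10 genes in the 15 libraries by group (x axis), with 1 point per library and the group mean and SD (n = 3) in black. For Pou5f1, Nanog, Dppa3, Dppa5a, Prdm14, Gdf3 and Dnd1 the 3 E10 AoV libraries stand above all others, whereas Prdm1 is highest in E9 AoV.

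Per kilobase of exon, levels can be set between genes. In E10 AoV Dppa5a was highest at 10.7 ± 0.654 RPM per kb, ahead of Pou5f1 at 6.53 ± 0.400, Dppa3 at 5.22 ± 0.625 and Dnd1 at 1.83 ± 0.183 RPM per kb (SD, n = 3 each). Nanog (1.69 ± 0.0700) and Prdm1 (1.31 ± 0.275) came next. The ranges of Dnd1 and Nanog overlapped, while Nanog and Prdm1 did not. Nanos3 (0.971 ± 0.271), Prdm14 (0.464 ± 0.0498), Gdf3 (0.363 ± 0.104) and Dazl (0.0912 ± 0.0126) were under 1.28 RPM per kb in every E10 AoV library. In E9 AoV the order was another, with Prdm1 first at 4.30 ± 0.747 and Dnd1 second by mean at 1.11 ± 0.155 RPM per kb. The Dnd1 range there overlapped those of Pou5f1, Dppa3 and Dppa5a.

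Setting E10 AoV against E10 AoD shows which genes mark the ventral side once the region can support blood stem cells by itself. Of the 9 genes tested, 8 were called higher in E10 AoV and none lower. Among all 18553 genes, 5.81% were called higher in E10 AoV and 4.29% lower. Gdf3 and Prdm14 reached 0.5 RPM in E10 AoV alone (at most 0.296 and 0.329 RPM elsewhere), so that they could be tested only because they were high there. Of the 7 genes that reached it in another group, 6 were called higher. The exception was Nanos3, with a difference of 0.36 on the log2 scale (SE 0.26, limma adjusted p = 0.318). Counting all 10 genes, the ranges of the 2 groups did not overlap for 9, all higher in E10 AoV, which held for 27.9% of all genes tested. The median difference of those 7 was 4.01 on the log2 scale, against 0.0174 over all genes tested. With a constant of 1 RPM in place of 0.1 before the log, Gdf3 (0.73), Dnd1 (0.81) and Prdm1 (0.90) were under the 2-fold line, and so was Dnd1 with quantile normalization (0.99).

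At E9.5, in E9 AoV against E9 AoD, 5 genes were called higher, namely Pou5f1, Nanog, Dppa3, Dppa5a and Prdm1, while 8.32% of all genes were. Pou5f1, Dppa3 and Dppa5a each differed by 1.69 on the log2 scale (SE 0.38, 0.34 and 0.33, limma adjusted p at most 0.00200). Nanog differed by 1.02 (SE 0.25, limma adjusted p = 0.00335), a call that was lost without either E9 AoD replicate 2 or 3 or E9 AoV replicate 2 or 3, with differences from 0.85 to 0.99, and with quantile normalization (0.70) or median-ratio scaling (0.99). All of these but Prdm1 were lost with a constant of 1 RPM in place of 0.1, where only Prdm1 of the 9 was called.

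Setting E10 AoV against E9 AoV follows the ventral tissue through the day in which it gains its support of blood stem cells. Pou5f1, Nanog, Dppa3, Dppa5a, Gdf3 and Prdm14 rose, by 2.10 to 3.47 on the log2 scale, and Prdm1 fell. Of all genes tested, 6.04% were called higher and 4.99% lower at E10.5. Gdf3 and Prdm14 could be tested only because they were high in E10 AoV. Of the 7 genes that passed the filter in another group, 4 were called higher and 1 lower. Counting all 10 genes, 9 had ranges without overlap and higher at E10.5, as had 27.7% of all genes tested. Dnd1 (0.71, SE 0.13, limma adjusted p = 0.000478) and Nanos3 passed the adjusted p, which 46.0% of all genes did, but not the 2-fold line. With the constant of 1 RPM, Gdf3 (0.68) and Prdm14 (0.87) were under that line too. In the dorsal tissue, E10 AoD against E9 AoD, Prdm1 was the one gene called. It fell by 1.22 on the log2 scale (SE 0.20, limma adjusted p = 8.31e-05), while 12.6% of all genes were called in either direction, and 57.8% passed the adjusted p alone, as did 3 of the 9. Counting all 10 genes, the ranges did not overlap for Prdm1 and Dnd1, both lower at E10.5, while 60.7% of all genes had ranges without overlap. Pou5f1 had a dorsal difference of -0.91 (SE 0.38, limma adjusted p = 0.052), which became -1.39 without E9 AoD replicate 3 and -1.25 without E10 AoD replicate 3, and was then called lower at E10.5, as it was with quantile normalization (-1.03, limma adjusted p = 0.0185).

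Whether the change with stage differed between ventral and dorsal tissue was tested by the difference of the 2 changes. It was positive and called for 7 of the 9 genes (Pou5f1, Nanog, Dppa3, Dppa5a, Gdf3, Dnd1 and Prdm14), against 4.12% of all genes. Without Gdf3 and Prdm14, which passed the filter through E10 AoV alone, these were 5 of 7. For Pou5f1 this difference was 3.73 on the log2 scale (SE 0.54, limma adjusted p = 0.000108) and for Nanog 2.99 (SE 0.35, limma adjusted p = 1.76e-05). Prdm1, which fell in both tissues, gave -0.48 (SE 0.28, limma adjusted p = 0.23), and Nanos3 0.20 (SE 0.37, limma adjusted p = 0.747). With the constant of 1 RPM the difference was under the 2-fold line for Gdf3 (0.69), Dnd1 (0.86) and Prdm14 (0.96).

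E10 UGR is the tissue in which germ cells end their journey. Against it, E10 AoV had 7 genes called higher (Pou5f1, Nanog, Dppa3, Dppa5a, Gdf3, Prdm1 and Prdm14) and none lower. Over all genes tested, 3.84% were called higher in E10 AoV. Without Gdf3 and Prdm14, which passed the filter through E10 AoV alone, the members called higher were 5 of 7. Dnd1 differed by 0.81 (SE 0.13, limma adjusted p = 0.000257), under the 2-fold line, and Nanos3 by 0.06 (SE 0.26, limma adjusted p = 0.896). The call of Prdm1 (1.01, SE 0.20, limma adjusted p = 0.00105) was lost without E10 AoV replicate 1 or E10 UGR replicate 1 or 3, with differences from 0.87 to 0.99. With the constant of 1 RPM, Prdm1 (0.86), Prdm14 (0.89) and Gdf3 (0.50) were not called. E10 AoD in turn had 6 genes called lower than in E10 UGR, namely Pou5f1 (-2.98, SE 0.38), Nanog (-2.57, SE 0.25), Dppa5a (-2.36, SE 0.33), Dppa3 (-2.0, SE 0.34), Prdm14 (-1.23, SE 0.30) and Gdf3 (-1.06, SE 0.25), with limma adjusted p of at most 0.00399. Of all genes, 6.56% were called lower in E10 AoD. Without Gdf3 and Prdm14, the members called lower were 4 of 7. Both Prdm14 and Gdf3 were near the 2-fold line. Gdf3 was not called without E10 AoD replicate 1 (-0.99) or E10 UGR replicate 1 (-0.96), nor Prdm14 without E10 UGR replicate 2 (-0.90), and Gdf3 was not called with quantile normalization (-0.79). With the constant of 1 RPM, Pou5f1 and Nanog alone were called. These comparisons share groups with each other, so that their results are not independent.

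**Figure D2:**
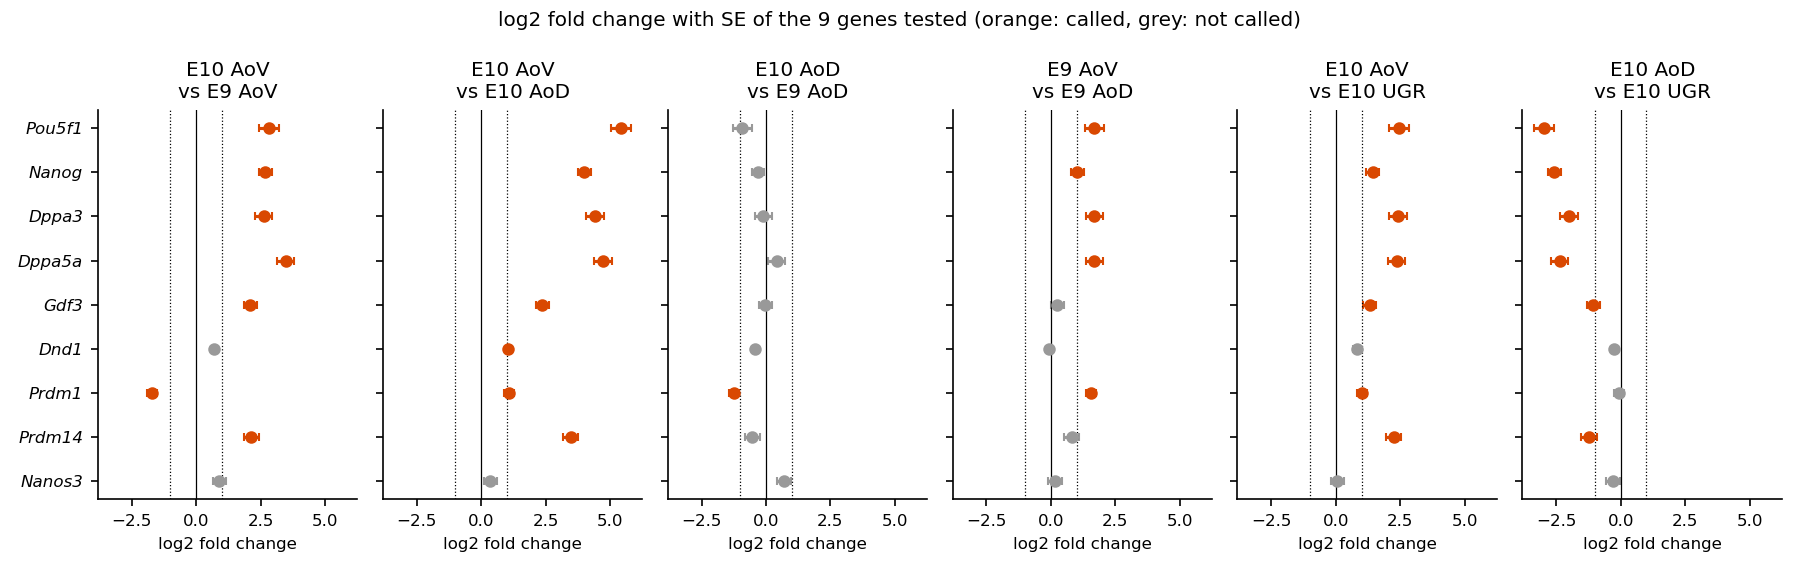
The log2 fold change (x axis, log2(RPM + 0.1) scale) of the 9 genes tested (y axis) in the 6 comparisons, the first group named minus the second, with SE as bars, called genes in orange and the 2-fold lines dotted. Pou5f1, Nanog, Dppa3 and Dppa5a lie furthest right in E10 AoV against E10 AoD, at 4.01 to 5.42, and Prdm1 is the one gene left of the lower 2-fold line in both comparisons of stage.

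The genes also differed in their level relative to Pou5f1 within a library. Nanog stood to Pou5f1 as 0.262, 0.259 and 0.251 in E10 AoV and as 0.683, 0.462 and 0.414 in E10 UGR, without overlap. Ratios of Dppa3 were alike, at 0.315 ± 0.0192 and 0.310 ± 0.0992 (SD, n = 3 each), and so were those of Dppa5a at 0.454 ± 0.0559 and 0.459 ± 0.0167. Those of Prdm14 overlapped as well. For Gdf3, Dnd1, Prdm1, Nanos3 and Dazl every E10 UGR library had a higher ratio than every E10 AoV library. Dnd1 stood to Pou5f1 as 0.929, 0.804 and 1.12 in E10 UGR and as 0.323, 0.268 and 0.31 in E10 AoV. Dazl had 0.0706, 0.0864 and 0.0785 in E10 UGR and 0.0207, 0.0207 and 0.0149 in E10 AoV. In E9 AoV, Prdm1 stood at 11.7 ± 0.911 times Pou5f1, against 0.495 ± 0.133 times in E10 AoV. With 3 libraries against 3, a two-sided exact permutation test cannot go below p = 0.1, and the ratios are given as a description. Dorsal groups are left out, since Pou5f1 held as few as 3 reads in a library there.

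**Figure D3:**
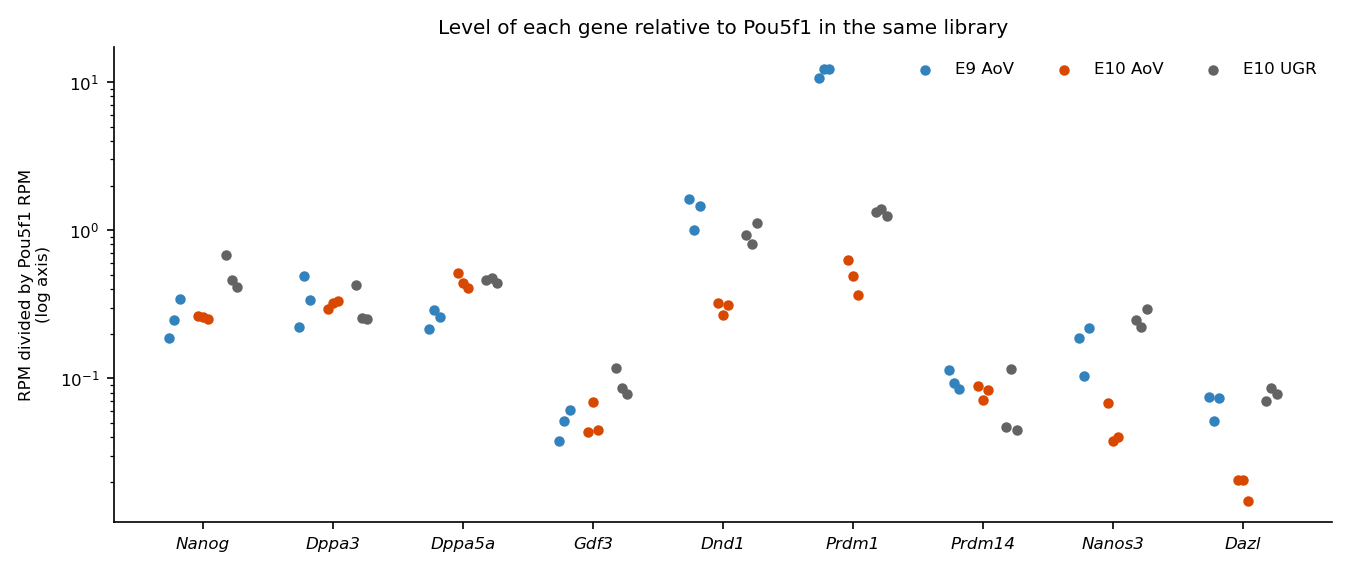
RPM of each gene divided by that of Pou5f1 in the same library (y axis, log scale) for the 9 other genes (x axis), with 1 point per library of E9 AoV, E10 AoV and E10 UGR. Dppa3, Dppa5a and Prdm14 have overlapping ratios in E10 AoV and E10 UGR, whereas those of Nanog, Gdf3, Dnd1, Prdm1, Nanos3 and Dazl are higher in E10 UGR.

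Over the 15 libraries, log2(RPM + 0.1) of Pou5f1 correlated with that of Dppa3 at r = 0.972, Nanog at 0.960, Prdm14 at 0.939, Dppa5a at 0.934 and Gdf3 at 0.892. With Dnd1 r was 0.795, with Dazl 0.789, with Nanos3 0.387 and with Prdm1 0.231. The libraries share their groups, and after group means were taken out r was 0.685 for Dppa3 and 0.628 for Nanog but 0.332 for Dppa5a and 0.214 for Gdf3. These are descriptions over 15 libraries. Of 18544 other genes tested, the 10 most like Pou5f1 by this r were Esrrb (0.986), Kcnab1, Dapk1, Nrxn3, Nell1, Utf1, Snn, Tex14, RP23-309K20.1 and Pbx3 (0.963). Esrrb, an orphan nuclear receptor of pluripotent cells, was at 8.41 ± 0.649 RPM in E10 AoV, 2.06 ± 0.365 in E10 UGR and 0.359 ± 0.147 in E10 AoD, and Utf1, a chromatin factor of pluripotent cells, at 5.13 ± 0.336, 1.0 ± 0.136 and 0.130 ± 0.0562 RPM (SD, n = 3 each). Tex14 is a component of the bridges between germ cells. Dapk1 (244 ± 3.51 RPM in E10 AoV) and Snn (169 ± 6.08) were expressed in all groups at far higher RPM than Pou5f1.

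Nanog, Dppa3 and Gdf3 lie within 150 kb of each other, and the annotation puts 12 genes within 150 kb of Nanog. All 3 comparisons of E10 AoV called Nanog, Dppa3 and Gdf3 higher in that group, and none of the other 6 tested was called higher in all 3. Gdf3 passed the filter through E10 AoV alone. Of all genes, 6.04% were called higher than in E9 AoV, 5.81% than in E10 AoD and 3.84% than in E10 UGR. With shares this small, none of 6 is not a result about these neighbours. Between Dppa3 and Nanog, the pseudogenes RP23-180N22.3 and RP23-180N22.1 differed by -0.55 and -0.23 on the log2 scale in E10 AoV against E9 AoV and were not called. Slc2a3, a glucose transporter that starts 94.2 kb beyond Nanog, went with stage in AoV from 294 ± 22.3 to 26.2 ± 0.400 RPM (SD, n = 3 each) and fell by 3.48 on the log2 scale (SE 0.11, limma adjusted p = 4.51e-11). Apobec1, an RNA-editing deaminase, and C3ar1, a complement receptor of myeloid cells, rose with stage in ventral tissue, by 1.63 and 2.95 (limma adjusted p at most 3.25e-05), but differed from E10 AoD by -0.23 and -0.36 without a call.

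**Figure D4:**
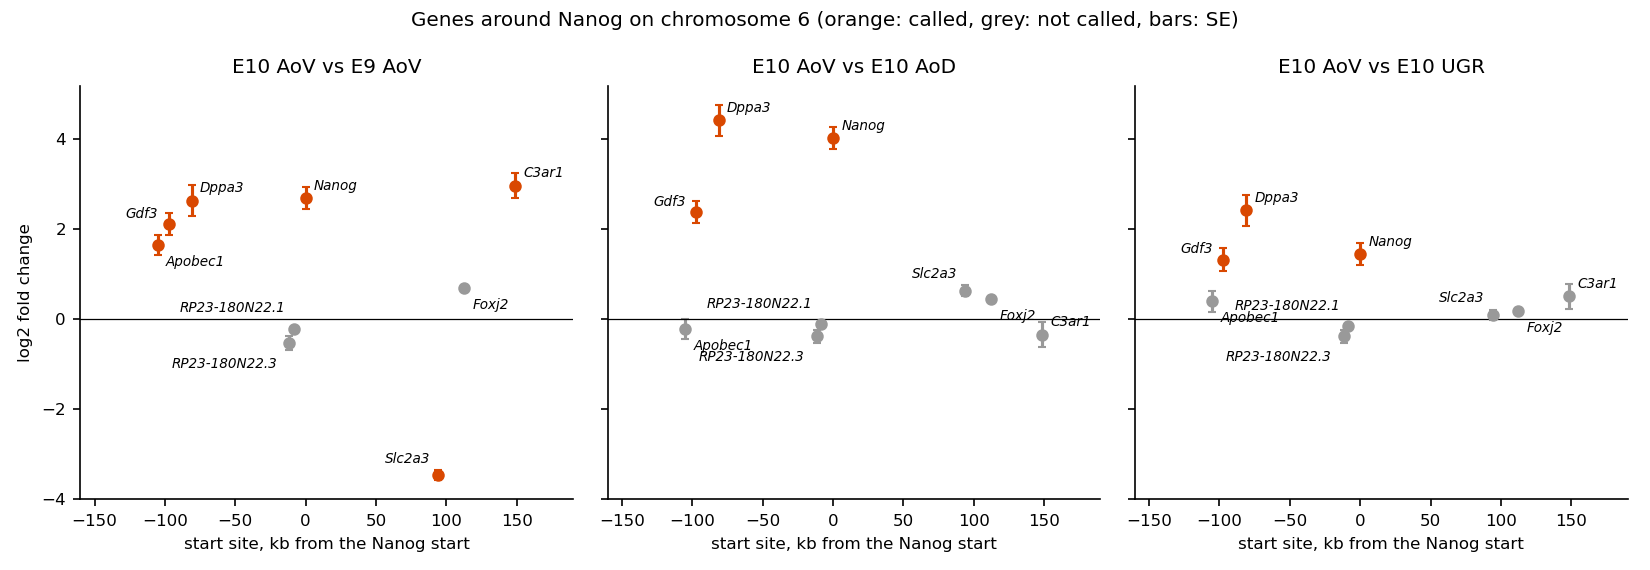
The log2 fold change with SE (y axis) of the tested genes whose annotated position lies within 150 kb of Nanog, against the distance of their start from that of Nanog in kb (x axis), in the 3 comparisons of E10 AoV, with called genes in orange. Gdf3, Dppa3 and Nanog are at 1.31 or above in all panels, while Slc2a3 is at -3.48 in the first panel alone.

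Other genes of the field were examined as lists. Several of them are in the paper's E10 AoV cluster from these libraries, among them Esrrb, Dppa2, Tcl1, Klf4, Piwil2 and Tex19.1. Their direction is not independent evidence either. Of 10 other primordial germ cell genes, all tested, 6 were called higher in E10 AoV against E10 AoD and none lower (5.81% and 4.29% of all genes), and their median difference was 1.12 on the log2 scale against 0.0174 over all genes. Against E9 AoV, none was called higher and 4 were called lower (Sall4, Lin28a, Ifitm1 and Fut4), as were 6.04% and 4.99% of all genes, and against E10 UGR 3 were called higher (Tfap2c, Ifitm1 and Ifitm3), as were 3.84%. In these lists, members of a count of 5 or fewer are named also where they were chosen after their values were seen. Many are not particular to germ cells. Lin28a, an RNA-binding protein of early embryonic tissues, was at 309 RPM in E9 AoV, 118 in E10 AoV and 44.8 in E10 AoD on average. Sall4, a zinc-finger factor of stem and germ cells, went down with stage in AoV and fell by 2.23 on the log2 scale (SE 0.08, limma adjusted p = 6.67e-11). Ifitm1, a membrane protein of germ cells and other mesodermal cells, fell by 1.29 with stage in AoV (SE 0.12, limma adjusted p = 5.97e-07) and was higher in E10 AoV than in E10 AoD by 3.18 (SE 0.12, limma adjusted p = 1.23e-10). Kit, the receptor that germ cells and blood progenitors need, differed by 1.13 (SE 0.07, limma adjusted p = 1.52e-08) between E10 AoV and E10 AoD.

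Of 17 other pluripotency genes 16 were tested. In E10 AoV against E10 AoD 11 were called higher and 2 lower (Sox2 and Fgf4), as were 5.81% and 4.29% of all genes. Against E9 AoV 9 were called higher and 1 lower (Tbx3), as were 6.04% and 4.99% of all genes. Against E10 UGR 8 were called higher and 4 lower, as were 3.84% and 3.73% of all genes. Zfp42, Tcl1 and Dppa2 passed the filter through E10 AoV alone, and of the 13 others 8 were called higher against E10 AoD, 6 against E9 AoV and 5 against E10 UGR. The 4 called lower than in E10 UGR were Tbx3 (-2.30), Tfcp2l1 (-2.32), Nr0b1 (-1.57) and Fgf4 (-1.33). The list mixes genes of several tissues. Klf2 and Klf4, factors that endothelium also uses, rose with stage in AoV by 2.23 and 2.29 (limma adjusted p at most 0.000584) but did not differ by a called amount from E10 AoD. Sox2, also a neural tube marker, was lower in E10 AoV than in E10 AoD, with a difference of -1.34 (SE 0.23, limma adjusted p = 0.000276).

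Later germline genes, which act in the gonad or in meiosis, were mostly low, and 12 of 23 were tested. Of these 7 were called higher in E10 AoV against E10 AoD and none lower, as were 5.81% and 4.29% of all genes. Against E9 AoV 7 were called higher and none lower (6.04% and 4.99% of all genes). Against E10 UGR 5 were called higher (Rhox6, Tex19.1, Piwil2, Tdrd12 and Fkbp6) and 1 lower (3.84% and 3.73% of all genes). Tdrd12, Stk31 and Fkbp6 passed the filter through E10 AoV alone, and of the 9 others 4 were called higher against E10 AoD, 4 against E9 AoV and 3 against E10 UGR. Rhox6, a homeobox gene of placenta and germ cells, was at 3.12 RPM in E10 AoV, 0.654 in E10 UGR and 0.0921 in E10 AoD on average. Tex19.1, which restrains retrotransposons in germ cells, was at 1.5, 0.458 and 0.104 RPM, and Piwil2, a piRNA-binding protein, at 1.95, 0.868 and 0.307 RPM in the same groups. Dmrt1, a factor of germ cells and of gonadal somatic cells, ran otherwise and was the 1 called lower, at 1.32 RPM in E10 UGR and 0.587 in E10 AoV (log2 difference -1.06, SE 0.35, limma adjusted p = 0.0338).

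**Figure D5:**
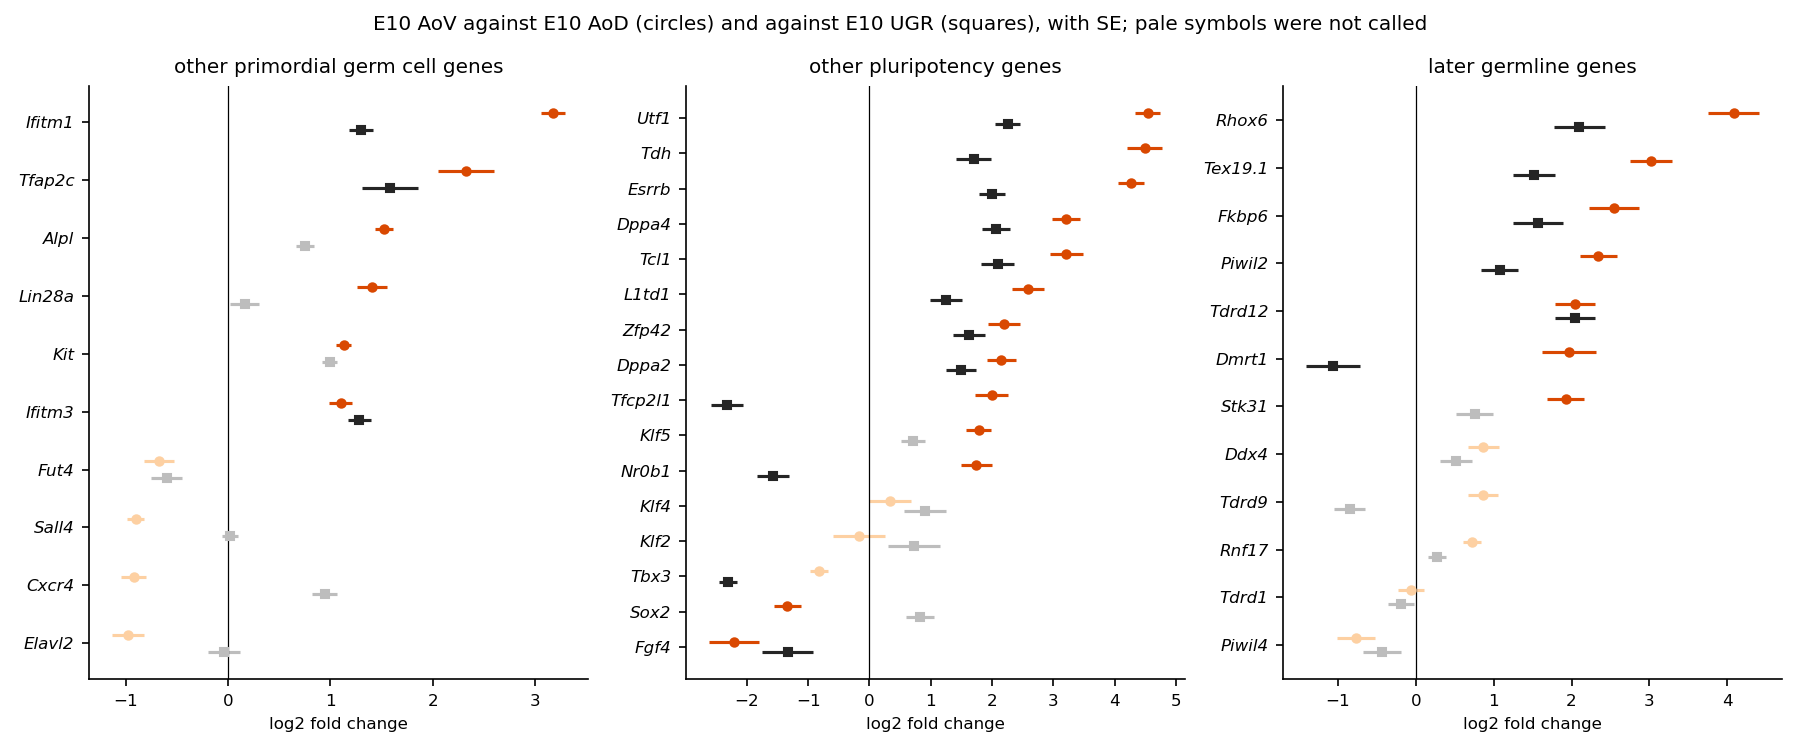
The log2 fold change with SE (x axis) of the tested genes of 3 lists (y axis), in E10 AoV against E10 AoD (circles) and against E10 UGR (squares), with genes that were not called in pale shades. In the middle panel most genes lie right of 0 in both comparisons, but Tfcp2l1, Nr0b1, Tbx3 and Fgf4 lie left of 0 against E10 UGR.

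Around the ligand Gdf3, 12 of 14 genes of the NODAL and GDF3 pathway were tested, and 2 were called higher in E10 AoV against E10 AoD (Acvr1c and Foxh1) and none lower, beside 5.81% and 4.29% of all genes. Against E9 AoV 2 were called higher (Acvr1c and Lefty2) and 1 lower (Gdf1), beside 6.04% and 4.99% of all genes. Acvr1c, which encodes the receptor ALK7, was at 1.81 RPM in E10 AoV, 0.744 in E10 UGR and 0.139 in E10 AoD on average, and differed by 2.98 between E10 AoV and E10 AoD (SE 0.22, limma adjusted p = 5.22e-08). Foxh1, a SMAD partner, differed by 1.19 (SE 0.37, limma adjusted p = 0.0196). Lefty2, an inhibitor of NODAL, rose by 1.18 from E9 AoV to E10 AoV (SE 0.29, limma adjusted p = 0.00381). Smad2, Smad3 and Smad4, the shared signal carriers, had group means from 59.3 to 177 RPM and were not called in any comparison. Gdf1, which fell by 1.31 from E9 AoV to E10 AoV, shares exon sequence with Lass1, and its reads are uncertain. Its exons also overlap those of Upf1 on the other strand, which was at 116 to 169 RPM.

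Of 8 genes for signals along the germ cell route, 2 were called higher in E10 AoV against E10 AoD (Kitl and Bmp4) and 2 lower (Wnt5a and Bmp2), beside 5.81% and 4.29% of all genes. Kitl, the ligand of KIT, was at 221 RPM in E10 AoV, 179 in E10 UGR and 39.5 in E10 AoD on average, and differed by 2.48 between E10 AoV and E10 AoD (SE 0.10, limma adjusted p = 2.00e-10). Bmp4, a ligand needed to induce germ cells, differed by 1.68 (SE 0.14, limma adjusted p = 3.05e-07). Wnt5a, a guidance signal read by the receptor ROR2, was lower in E10 AoV, with a difference of -1.39 (SE 0.11, limma adjusted p = 1.56e-07). Cxcl12, the ligand of CXCR4 that attracts germ cells, rose with stage in AoV by 2.0 (SE 0.11, limma adjusted p = 3.27e-09) and in AoD by 1.93 (SE 0.11, limma adjusted p = 3.55e-09), and its mean at E10.5 was 1330 RPM in AoD against 1030 RPM in AoV.

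Markers of the tissues around the aorta differed between the groups as well, each list in its own way. The 6 markers of coelomic epithelium and genital ridge (Wt1, Nr5a1, Gata4, Lhx9, Emx2 and Upk3b) summed to 745 to 794 RPM in E10 AoV and to 686 to 754 RPM in E10 UGR, against 55.0 to 80.7 RPM in E10 AoD, 183 to 193 RPM in E9 AoV and at most 110 RPM in E9 AoD. All 6 were called higher in E10 AoV against E10 AoD, as were 5.81% of all genes. The 5 mesonephros markers summed to 214 to 234 RPM in E10 UGR and at most 29.3 RPM in E10 AoV. Neural tube markers reached 191 to 396 RPM in E9 AoD and 41.4 to 74.3 RPM in E10 AoD, against 10.1 RPM at most in E10 AoV. Endothelial markers lay between 563 and 636 RPM in the E10 aortic groups, with none of 5 called between them. The part of these tissues in the levels of Pou5f1 and the others was not tested. The libraries labelled UGR thus held the markers of the urogenital ridge. Those of coelomic epithelium and genital ridge summed as high in E10 AoV, while the mesonephros markers were higher in E10 UGR. No endothelial marker was near 0 in the libraries labelled as aorta, the lowest group mean being 25.4 RPM for Tek in E9 AoD. These markers do not tell the labels apart, since Tek was at 40.2 RPM on average in E10 UGR.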

How the data were processed

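Tissue was pooled from dissected AGM regions, RNA was made into TruSeq libraries and read as single-end 50 base reads. The authors aligned the reads to NCBIM37 (mm9) with TopHat and Bowtie 0.12.3 and counted them over Ensembl genes in GeneProf, with reads that fit more than 1 gene shared out by the genes' unique reads, which makes genes with copies uncertain. The deposited RPM values are reads per 1000000 reads assigned to genes in each library and are not adjusted for length. The deposited table also holds the authors' log2 fold change and p-value columns, 12 in all, which were not used. Whole counts could not be recovered, since only 46.8% to 56.8% of low values were whole multiples of 1 read.

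From the RPM values, log2(RPM + 0.1) was fitted by limma (version 3.58.1, under R 4.3.3) with an intensity trend and a mean for each of the 5 groups, using all 15 libraries and the genes that reached 0.5 RPM in any of them. Replicates came from separate pools in 3 experiments. Within groups, pairs of libraries correlated at 0.993 to 0.997 and none was a duplicate. The members and all lists were chosen with earlier results of these data known. All members are described; of every other list, counts are given and up to 4 genes are named, those called in E10 AoV against E10 AoD or E9 AoV with the highest group mean, beside the genes within 150 kb of Nanog and the 10 most like Pou5f1. Positions and windows of 50 bases come from the GENCODE annotation and genome of NCBIM37, in which 95.3% of gene IDs were found, and promoters from RefSeq (GRCm38.p6). A gene of the lists is not reported here. The fit was tested on simulated data. Alternatives were another constant, no filter, other scalings, a replicate block, no fold threshold, fits on the compared groups and each library left out. Dissection itself is not seen in the files, so a group is what its label says.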

Additional observations from a re-analysis of the deposited data

Results flagged for a closer look

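For 7 genes the change with stage differed between the ventral and the dorsal part, by the test of that difference in limma. On the log2 scale the ventral change minus the dorsal change was 3.73 for Pou5f1, 2.99 for Nanog, 2.72 for Dppa3, 3.05 for Dppa5a, 2.12 for Gdf3, 1.12 for Dnd1 and 2.67 for Prdm14 (limma adjusted p at most 0.000648). These 7 were picked by that call, and Gdf3 and Prdm14 reached 0.5 RPM in E10 AoV alone. The ranges that follow largely come with this choice, so they are a description and not further support. All 3 E10 AoV libraries were higher than all 3 E9 AoV libraries for each of the 7, which held for 27.7% of all genes tested. In the dorsal part 6 of the 7 had overlapping ranges at the 2 stages, the exception being Dnd1, which was lower in all 3 E10 AoD libraries, while 60.7% of all genes had no overlap there. No group held more than 3 libraries, so that single libraries were not screened for outliers.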

How the results depend on the processing

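The calls of Pou5f1, Dppa3, Dppa5a and Nanog in the 3 comparisons of E10 AoV kept their side of the thresholds under every alternative run. With 1 RPM in place of 0.1, members called were 5 in E10 AoV against E10 AoD, 1 in E9 AoV against E9 AoD, 4 in E10 AoV against E10 UGR, 2 in E10 AoD against E10 UGR and 4 in the test of the difference between ventral and dorsal change, and over all genes tested 735 to 1281 were called per comparison in place of 1404 to 2337, while 5214 to 10730 were called without a fold threshold. In E10 AoD against E9 AoD, members called were 2 with quantile normalization and 3 without a fold threshold. Leaving out 1 library gave 1 to 2 members called there, 7 to 8 in E10 AoV against E9 AoV, 6 to 8 against E10 AoD, 4 to 5 in E9 AoV against E9 AoD, 6 to 7 in E10 AoV against E10 UGR, 5 to 6 in E10 AoD against E10 UGR and 7 in the test of the difference. When only the 2 groups compared were fitted, Gdf3 and Prdm14 did not pass the filter in E10 AoD against E10 UGR. In all, 88 of 97 counts stayed within 1.5 times. Without the filter Dazl was called in E10 AoV against E10 AoD (1.01, limma adjusted p = 0.0273). Quantile normalization moved genes called higher in E9 AoV than in E9 AoD from 1544 of 2187 to 1200 of 2020.

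Signs turned only for uncalled differences near 0. With 1 library left out, E10 AoD against E9 AoD ranged from -0.47 to 0.22 for Dppa3, from -0.035 to 0.75 for Dppa5a and from -0.24 to 0.21 for Gdf3, E9 AoV against E9 AoD from -0.14 to 0.046 for Dnd1, E10 AoV against E10 UGR from -0.13 to 0.19 for Nanos3, and E10 AoD against E10 UGR from -0.30 to 0.085 for Prdm1. Quantile normalization gave -0.065 for Gdf3 and -0.16 for Nanos3 in E9 AoV against E9 AoD and 0.034 for Prdm1 in E10 AoD against E10 UGR. The cause was not tested. Same-numbered libraries did not deviate together in all pairs (30 pairs, r from -0.138 to 0.452, 11 over 0.1, and 11 of 15 libraries were closest to their own number). Within a stage every same-numbered pair was above 0, from 0.0416 to 0.452, and those below 0 were all between stages. Libraries of a stage may thus be paired by number. The labels do not say so, and the main fit does not take such pairing into account. A replicate block changed no call of a member, with 7 called in E10 AoV against E9 AoV, and left 2045 genes called there in place of 2046. Members at a few reads per library, such as Gdf3 and Prdm14 in E10 AoD, are limited by depth.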
